A study of Arabidopsis thaliana with 8 samples.

Results

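The flavonoid and anthocyanin pathway was followed through 10 of the 38093 gene entries measured in rosette leaves of Arabidopsis thaliana. The entries were taken by their locus identifiers, from a list drawn up with earlier results of these data known. They were chalcone synthase (CHS, AT5G13930), chalcone isomerase (CHI, AT3G55120), flavanone 3-hydroxylase (F3H, AT3G51240), flavonoid 3'-hydroxylase (F3'H, AT5G07990), flavonol synthase 1 (FLS1, AT5G08640), dihydroflavonol 4-reductase (DFR, AT5G42800), leucoanthocyanidin dioxygenase (LDOX, AT4G22880), the anthocyanin glycosyltransferase UF3GT (AT5G54060), the glutathione S-transferase TT19 (AT5G17220) and the MYB transcription factor PAP1 (AT1G56650). Each was found once in the table of each library, and the product names of the reference annotation carry the same enzymes and factors.

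The plants were of the Col-0 ecotype. They spent 12 d in soil and 10 d in hydroponic medium with 1 µM CuSO4, and were then split for another 10 d into 4 groups of 2 libraries. The control stayed in this medium, copper deficiency had no CuSO4 and 10 µM of the copper chelator bathocuproinedisulfonate, iron deficiency had no FeEDTA, and double deficiency combined both changes. All leaves were taken 4 h after the lights came on. No label says that paired libraries were grown as separate cultures. A p-value here sets a difference against the spread between libraries of the same group, estimated over all 4 groups and drawn towards that of other genes. That spread may be technical.

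Flavonoids are made from the phenylpropanoid p-coumaroyl-CoA. CHS condenses it with malonyl-CoA to a chalcone, CHI closes the ring, and F3H and F3'H hydroxylate the product to dihydroflavonols. At this point the pathway forks. FLS1 leads to colourless flavonols, while DFR and LDOX lead to anthocyanidins, which glycosyltransferases such as UF3GT decorate and which need TT19 to reach the vacuole. F3H, FLS1 and LDOX are dioxygenases that use ferrous iron, and F3'H is a haem-containing cytochrome P450. In Arabidopsis the late genes are switched on by complexes of a MYB factor such as PAP1, a basic helix-loop-helix factor such as TT8 and the WD40 protein TTG1. Red leaf pigmentation under nutrient or light stress is the best known output of this system.

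The promoters of 3 of the genes are shown because these genes lie on the same route: CHS at its entry, F3H in its middle and DFR at the fork to anthocyanins. Of these, only F3H passed the test described below in any comparison. The windows run from 250 bases before the gene start to 30 bases after it, 5' to 3' on the coding strand, from the RefSeq assembly TAIR10.1. CHS lies on the plus strand (chr5:4488226-4488505), F3H on the plus strand (chr3:19024942-19025221) and DFR on the minus strand (chr5:17166003-17166282). Capitals mark CACGTG, the G-box that bZIP and bHLH factors can bind, and ACCNACC on either strand, the core of a MYB recognition element.
CHS: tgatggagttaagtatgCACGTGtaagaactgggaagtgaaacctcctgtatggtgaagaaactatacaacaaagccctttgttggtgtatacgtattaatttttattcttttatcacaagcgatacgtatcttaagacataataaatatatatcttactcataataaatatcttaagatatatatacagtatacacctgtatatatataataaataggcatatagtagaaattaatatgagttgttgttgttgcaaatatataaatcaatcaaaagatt
F3H: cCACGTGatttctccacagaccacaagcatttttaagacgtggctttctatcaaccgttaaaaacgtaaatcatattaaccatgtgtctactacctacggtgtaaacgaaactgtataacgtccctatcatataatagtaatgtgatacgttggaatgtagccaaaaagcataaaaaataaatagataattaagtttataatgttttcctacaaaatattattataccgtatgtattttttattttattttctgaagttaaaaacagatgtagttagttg
DFR: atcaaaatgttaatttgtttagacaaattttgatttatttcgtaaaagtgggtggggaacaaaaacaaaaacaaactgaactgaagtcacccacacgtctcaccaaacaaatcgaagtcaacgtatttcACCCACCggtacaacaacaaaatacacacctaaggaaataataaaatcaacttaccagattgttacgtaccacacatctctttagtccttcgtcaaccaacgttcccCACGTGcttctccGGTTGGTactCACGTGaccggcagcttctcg

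Over windows that reach 50 bases past the gene start, 300 bases in all and read on both strands, CACGTG stood in 5 of the 10 genes, against 7.68% of the windows of 27443 coding genes. These were CHS, CHI, F3H, DFR and UF3GT. ACCNACC stood in CHS and DFR, 2 of the 10 genes, against 7.39% of all windows. The ACCNACC of CHS lay 34 bases past the gene start, beyond the sequence shown. The CACGTG of CHI lay 39 bases past its gene start. The shorter core ACGT, which every CACGTG contains, was present in 7 of the 10 genes and in 49.9% of all windows. CANNTG, which also covers CACGTG, was present in 7 of the 10 genes and in 61.7% of all windows. The windows of F3'H, FLS1, LDOX, PAP1 and TT19 held neither CACGTG nor ACCNACC. A match describes the letters in a window and not the binding of a factor.

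The values were FPKM, fragment numbers scaled to transcript length and to the mapped fragments of a library, as the authors deposited them, with a lower and an upper bound for each. Between 16842 and 18396 genes reached 1 FPKM per library, and the relative depth of the libraries, taken from those bounds, ran from 0.733 to 1. Chloroplast genes held 0.278% of the summed FPKM in copper deficiency replicate 2 and between 5.83% and 11.2% in the other 7 libraries. Differences were tested with limma on log2(FPKM + 1) over 19171 genes in all 8 libraries, and a gene is called at a Benjamini-Hochberg adjusted p under 0.05. Each log2 difference below is on that scale with its standard error, and it understates the change of genes with low FPKM. Errors of FPKM are SDs with n = 2. Across all tested genes the median log2 difference from the control was 0.01 under copper deficiency, 0.27 under iron deficiency and 0.41 under double deficiency, and a value is best read against these medians. Rescaling the libraries by median ratios brought the medians to 0.01 for iron and 0.02 for double deficiency. It also cut the share of higher genes among all called genes from 79.9% to 50.1% for iron and from 86.7% to 52.2% for double deficiency. Scaling to the summed FPKM of nuclear coding genes instead moved these shares to 89.1% and 90.2%, with medians of 0.43 and 0.50.

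In control leaves the entry enzyme CHS stood far above the rest of the pathway at 162 ± 7.89 FPKM. LDOX followed at 44.0 ± 20.5, DFR at 39.7 ± 9.39, F3H at 26.5 ± 5.64, PAP1 at 25.0 ± 5.92 and CHI at 18.0 ± 4.20 FPKM. FLS1 at 11.2 ± 2.54, UF3GT at 8.01 ± 4.70 and F3'H at 6.21 ± 2.40 FPKM were the lowest of the genes with a value above 0. Among the 9 genes above 0, the libraries of neighbours in this order overlapped, except between CHS and LDOX, DFR and F3H, and CHI and FLS1. In double deficiency the order had another shape, with CHS at 118 ± 3.71 and PAP1 at 105 ± 4.76 FPKM at the top. LDOX at 73.2 ± 9.59, DFR at 69.9 ± 10.4, F3H at 67.2 ± 1.07 and TT19 at 63.9 ± 1.83 FPKM followed. CHI at 20.4 ± 0.0391, UF3GT at 20.3 ± 3.15, FLS1 at 17.4 ± 2.38 and F3'H at 8.48 ± 0.424 FPKM closed it.

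**Figure D1:**
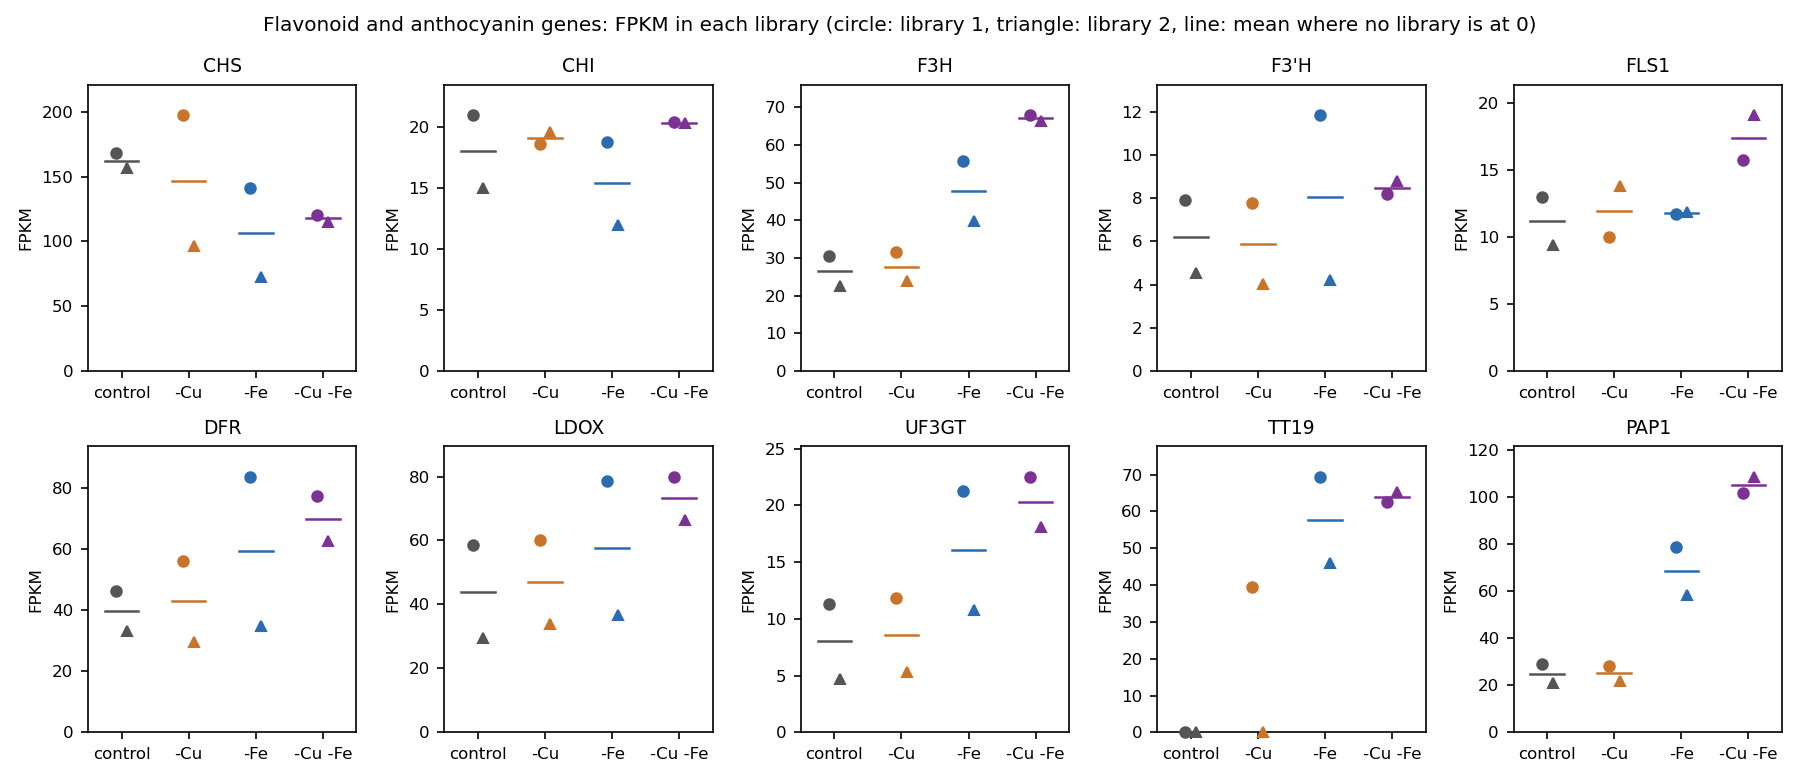
FPKM of the 10 genes in each of the 8 libraries, by group (control, copper deficiency as -Cu, iron deficiency as -Fe, double deficiency as -Cu -Fe); circles are replicate 1, triangles replicate 2, and lines the mean of a group with no library at 0. PAP1 and F3H rise clear of the control under iron and double deficiency, CHS does not, and in the first 3 groups replicate 1 lies above replicate 2 for most genes.

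No difference in the pathway was detected under copper deficiency alone. None of the 10 genes was called by limma, and none had an unadjusted p under 0.05. Over all tested genes, 35 genes or 0.183% were called in this comparison, 0.11% higher and 0.073% lower, and 4.89% had an unadjusted p under 0.05. The median log2 difference of the 10 genes was 0.07. F3H stood at 31.5 and 23.9 FPKM under copper deficiency beside 30.5 and 22.6 in the control. PAP1 stood at 28.1 and 21.9 FPKM beside 29.2 and 20.8. For both genes the 2 groups overlapped almost completely, and their log2 differences were 0.06 ± 0.22 and 0.01 ± 0.22, each with a limma adjusted p of 1.

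Under iron deficiency 3 of the 10 genes were called by limma, all higher: PAP1, F3H and TT19. Of all tested genes, 34.1% were called in this comparison, 27.2% higher and 6.85% lower, so the count of 3 is close to the background. Under double deficiency the same 3 genes were called, again higher, against 45.1% of all tested genes, 39.2% higher and 5.99% lower. The median log2 difference of the 10 genes was 0.41 for iron and 0.80 for double deficiency. TT19, whose call rests on libraries listed at 0, is described apart from the other 9 genes. Both comparisons use the same 2 control libraries. After scaling by median ratios the uncalled differences of F3'H and FLS1 under iron deficiency came to -0.02 and -0.19, and that of CHI under double deficiency to -0.24, so no direction is given for these genes.

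Among the early enzymes, CHS had log2 differences below 0 in both iron-free groups that did not pass the test. It stood at 168 and 157 FPKM in the control, 197 and 96.5 under copper deficiency, 141 and 72.4 under iron deficiency, and 120 and 115 under double deficiency. The 2 double-deficient libraries lay below both controls, while the copper and iron groups each held 1 high and 1 low library. The log2 difference was -0.68 ± 0.40 for iron deficiency, with a limma adjusted p of 0.236, and -0.46 ± 0.40 for double deficiency, with an adjusted p of 0.381. The CHS locus (chr5:4488476-4490264) shares 2 bases with a gene on the other strand that is listed at 0 in all libraries.

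CHI (chr3:20430059-20431597) was not called in any comparison. Its values were 21.0 and 15.1 FPKM in the control, 18.6 and 19.6 under copper deficiency, 18.8 and 12.0 under iron deficiency, and 20.4 in both double-deficient libraries. Every library except iron deficiency replicate 2 lay inside the range of the control. The log2 difference was -0.23 ± 0.23 under iron and 0.19 ± 0.23 under double deficiency, with limma adjusted p of 0.478 and 0.537.

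F3H (chr3:19025192-19026872) was the early enzyme that rose. It stood at 30.5 and 22.6 FPKM in the control, 31.5 and 23.9 under copper deficiency, 55.8 and 39.9 under iron deficiency, and 67.9 and 66.4 under double deficiency. Every library without iron lay above every library with iron. The share of all tested genes that separate in this way was not computed, for this gene or for those below. The log2 difference was 0.82 ± 0.22 for iron deficiency, with a limma adjusted p of 0.0311, and 1.32 ± 0.22 for double deficiency, with an adjusted p of 0.0045. Double deficiency exceeded copper deficiency by 1.26 ± 0.22, with an adjusted p of 0.00529. The call under double deficiency was kept in every alternative run. The call under iron deficiency was lost, among others, without control replicate 2 (log2 difference 0.61, adjusted p = 0.152), without iron deficiency replicate 1 (0.59, adjusted p = 0.136), and without double deficiency replicate 1 or 2 (adjusted p = 0.0643 each), as well as after scaling by median ratios (0.53, adjusted p = 0.141). An antisense non-coding RNA is annotated over 1588 of the 1681 bases of F3H and is listed at 0 in all libraries. As the libraries were unstranded, reads of the pair cannot be told apart.

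F3'H (chr5:2560328-2563137), which adds the hydroxyl group that separates quercetin and cyanidin from kaempferol and pelargonidin, was the lowest gene of the pathway. Its values were 7.91 and 4.51 FPKM in the control, 7.77 and 4.02 under copper deficiency, 11.8 and 4.23 under iron deficiency, and 8.18 and 8.78 under double deficiency. In the first 3 groups the spread within a group was larger than any difference between group means. F3'H differed by 0.23 ± 0.48 for iron and 0.44 ± 0.48 for double deficiency, with limma adjusted p of 0.751 and 0.491.

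FLS1 (chr5:2803833-2805606) lies at the flavonol side of the fork. It stood at 13.0 and 9.43 FPKM in the control, 9.99 and 13.8 under copper deficiency, 11.7 and 11.9 under iron deficiency, and 15.7 and 19.1 under double deficiency. Only the double-deficient libraries lay above all 6 others. FLS1 differed by 0.08 ± 0.21 for iron deficiency, with a limma adjusted p of 0.799, and 0.60 ± 0.21 for double deficiency, with an adjusted p of 0.0545, just outside the threshold. The latter was called among nuclear coding genes above 0 in all libraries (adjusted p = 0.0213), with the filter at 5 FPKM and after scaling to the nuclear coding sum. It was not called after scaling by median ratios or quantiles, or with no filter. Nor was it called with another pseudocount, without the trend or with the replicate block. Without control replicate 1 the difference was 0.81. The median of all tested genes was 0.41 under double deficiency.

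On the anthocyanin side, DFR, LDOX and UF3GT were not called under iron or double deficiency, and iron deficiency replicate 2 lay within the control range for all 3. DFR (chr5:17164093-17166032) stood at 46.4 and 33.1 FPKM in the control, 56.0 and 29.7 under copper deficiency, 83.7 and 34.8 under iron deficiency, and 77.2 and 62.6 under double deficiency. Both double-deficient libraries lay above both controls, but iron deficiency replicate 2 lay within the control range. DFR differed on the log2 scale by 0.45 ± 0.46 under iron deficiency, with a limma adjusted p of 0.483, and 0.81 ± 0.46 under double deficiency, with an adjusted p of 0.198.

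LDOX (chr4:12004726-12006209), the enzyme that follows DFR, had nearly the same profile. It stood at 58.5 and 29.4 FPKM in the control, 60.0 and 34.0 under copper deficiency, 78.7 and 36.6 under iron deficiency, and 79.9 and 66.4 under double deficiency. As for DFR, the double-deficient libraries were above both controls and the iron-deficient pair straddled the upper one. The log2 differences were 0.36 ± 0.48 and 0.80 ± 0.48, with limma adjusted p of 0.592 and 0.218.

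UF3GT (chr5:21936746-21938396) had the largest difference of these 3 late genes. Its values were 11.3 and 4.69 FPKM in the control, 11.8 and 5.32 under copper deficiency, 21.3 and 10.8 under iron deficiency, and 22.5 and 18.1 under double deficiency. Replicate 2 of iron deficiency lay just below the higher control, and both double-deficient libraries lay above all libraries with iron. UF3GT differed by 0.95 ± 0.51 for iron deficiency, with a limma adjusted p of 0.199, and 1.34 ± 0.51 for double deficiency, with an adjusted p of 0.0748. The latter was called among nuclear coding genes above 0 in all libraries (adjusted p = 0.0157) and with the replicate block. It was not called under any other filter, scaling or pseudocount, or without the trend. Without control replicate 1 the difference was 1.90.

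TT19 (chr5:5658416-5659661) was listed at 0 in both control libraries. Under copper deficiency it was listed at 39.5 FPKM in replicate 1 and at 0 in replicate 2. Under iron deficiency it stood at 69.4 and 45.9, and under double deficiency at 62.6 and 65.2 FPKM. All 4 libraries without iron thus carried values of the size of DFR and LDOX, and 3 of the 4 libraries with iron carried none. No fold change is given, because a listed 0 can be a failed estimate: of 7916 nuclear coding genes that reached 20 FPKM in some library, 255 were listed at 0 in another. The 3' end of TT19 overlaps the phytoene synthase gene PSY on the other strand by 108 bases. PSY stood at 156 and 157 FPKM in the control, 135 and 202 under copper deficiency, 98.2 and 103 under iron deficiency, and 108 and 110 under double deficiency, and was lowest where TT19 carried values in both libraries. Whether the overlap bears on the zeros was not tested. The limma adjusted p of TT19 was 0.0276 for iron and 0.0194 for double deficiency. Leaving out any library of the control, iron or double group moved the first to between 0.0592 and 0.115, and leaving out any library of the control or double group moved the second to between 0.0701 and 0.0892.

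PAP1 (chr1:21233555-21235292), the MYB activator of the late genes, had the largest difference of the 9 genes measured in all libraries. It stood at 29.2 and 20.8 FPKM in the control, 28.1 and 21.9 under copper deficiency, 78.8 and 58.5 under iron deficiency, and 102 and 109 under double deficiency. The 4 libraries without iron lay above the 4 with iron, and both double-deficient libraries lay above both iron-deficient ones. The log2 difference from the control was 1.42 ± 0.22 for iron deficiency, with a limma adjusted p of 0.0049, and 2.05 ± 0.22 for double deficiency, with an adjusted p of 0.000945. Double deficiency exceeded copper deficiency by 2.04 ± 0.22, with an adjusted p of 0.000938. Both calls against the control were kept in every alternative run, with log2 differences of 1.14 and 1.61 after scaling by median ratios.

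**Figure D2:**
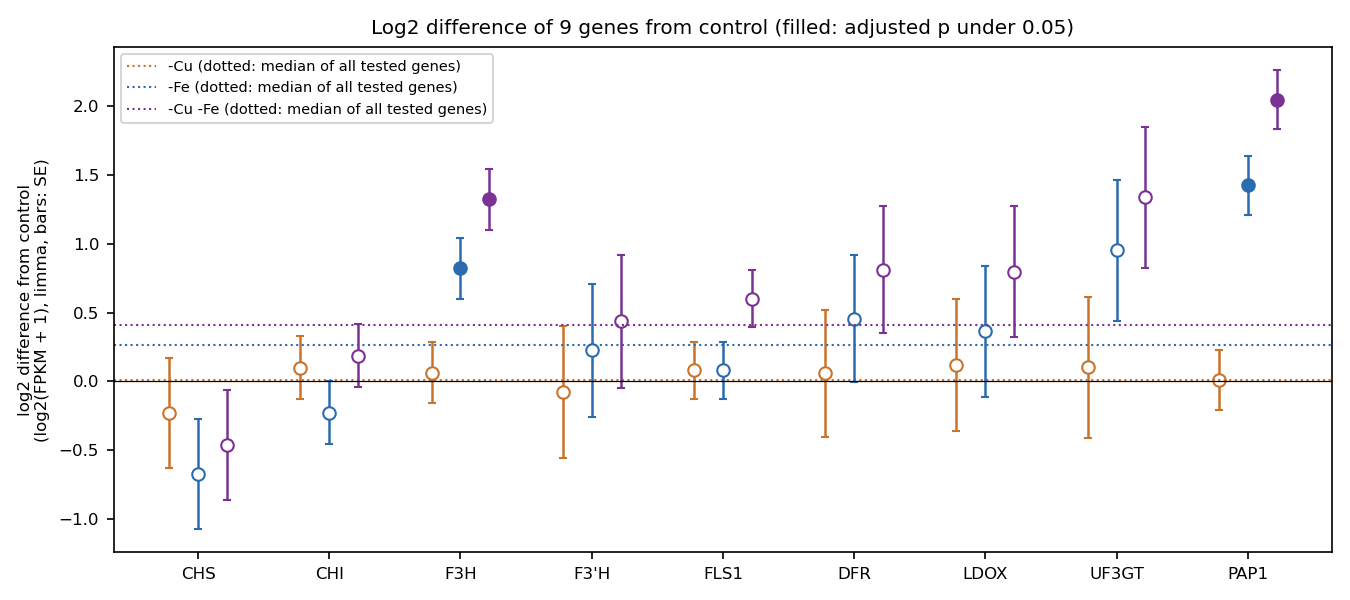
Log2 difference from the control of the 9 genes above 0 in all libraries, on the log2(FPKM + 1) scale from limma, for copper, iron and double deficiency; bars are standard errors, filled points have an adjusted p under 0.05, and dotted lines are the medians of all tested genes. PAP1 and F3H are filled under iron and double deficiency, and CHS is the gene that lies below 0 in all 3 comparisons.

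Adding copper deficiency to iron deficiency was compared directly, as double against iron deficiency. All 10 genes had a log2 difference above 0 and above the all-gene median of 0.15, with a median of 0.40, but limma called none of them, against 218 genes or 1.14% of all tested genes, 0.939% higher and 0.198% lower. PAP1 and FLS1, 2 of the 10 genes, had an unadjusted p under 0.05, as had 20.4% of all tested genes. The difference was 0.62 ± 0.22 for PAP1, with an adjusted p of 0.186, 0.52 ± 0.21 for FLS1, with an adjusted p of 0.228, and 0.50 ± 0.22 for F3H, with an adjusted p of 0.268. The 10 genes share their libraries, so the 10 directions are not separate observations.

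Against copper deficiency, double deficiency called 2 of the 10 genes by limma, F3H and PAP1, both higher, against 45.8% of all tested genes, 39.4% higher and 6.4% lower. The interaction asks whether copper deficiency acted differently with and without iron. None of the 10 genes was called for it by limma, and none had an unadjusted p under 0.05. Over all tested genes, 0.589% were called for it, 0.396% above and 0.193% below 0, and 13.5% had an unadjusted p under 0.05. The interaction was 0.61 ± 0.31 for PAP1, with an adjusted p of 0.436, and 0.44 ± 0.31 for F3H, with an adjusted p of 0.574.

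The 2 libraries of a group differed in many of the pathway genes at once. The authors' bounds of replicates 1 and 2 did not overlap for 6 of the 10 genes in the control, 7 under copper deficiency, 9 under iron deficiency and 2 under double deficiency. Replicate 1 was higher for 9 genes in the control, 8 under copper deficiency, 9 under iron deficiency and 6 under double deficiency. These counts were not made over all tested genes, so they have no background share beside them. The median of replicate 1 minus replicate 2 over all tested genes was 0.07, -0.03, -0.13 and 0.04 on the log2 scale in these groups. For the 9 genes above 0 everywhere, the median absolute log2 difference between replicates was 0.47, 0.80, 0.92 and 0.09 in these groups. Over all tested genes it was 0.17, 0.21, 0.18 and 0.14. Replicate numbers carry no shared meaning in the labels.

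Of the 3 genes on the epidermal list, 1 had a like spread in 2 of the groups. PDF1, a protodermal cell wall protein, stood at 70.0 and 15.9 FPKM in the control, 64.0 and 20.1 under copper deficiency, 45.9 and 41.5 under iron deficiency, and 68.8 and 59.1 under double deficiency. Its replicate 1 exceeded replicate 2 by 2.07 and 1.62 on the log2 scale in the control and copper groups, and by 0.14 and 0.22 in the iron and double groups. The other 2 genes on the epidermal list, the homeobox factor ATML1 and the wax transporter CER5, differed by at most 0.21 between replicates of any group. The summed level of the 3 genes ran from 118 to 174 FPKM in the control, 115 to 171 under copper deficiency, 153 to 163 under iron deficiency and 178 to 190 under double deficiency. Its part in the spread of the pathway genes was not tested.

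**Figure D3:**
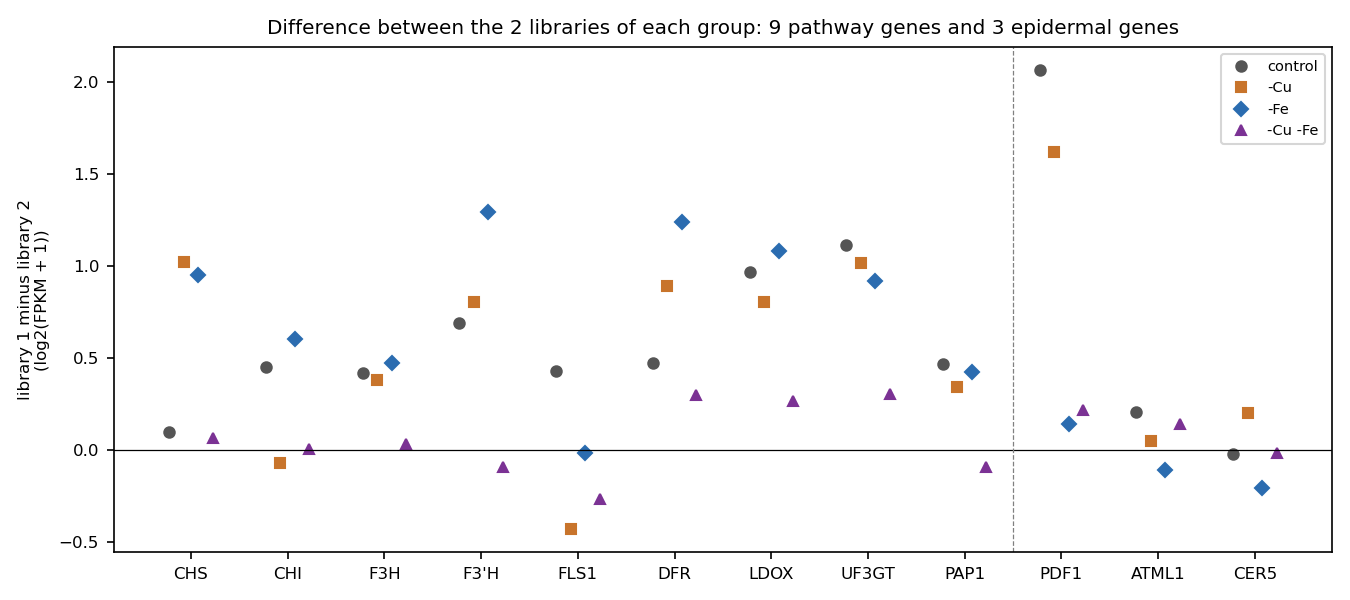
Replicate 1 minus replicate 2 within each group, on the log2(FPKM + 1) scale, for 9 pathway genes and, right of the dashed line, 3 epidermal genes; symbols and colours are the 4 groups. Most pathway genes lie above 0 in the control, copper and iron groups, and close to 0 in the double-deficient group.

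Ratios between genes within a library were also computed, chosen after the values had been seen and given without a test. The ratio of F3H to CHS was 0.182 and 0.144 in the control, 0.160 and 0.248 under copper deficiency, 0.395 and 0.551 under iron deficiency, and 0.565 and 0.577 under double deficiency. The ratio of DFR to CHS was 0.276 and 0.211 in the control, 0.284 and 0.308 under copper deficiency, 0.593 and 0.481 under iron deficiency, and 0.642 and 0.544 under double deficiency. For both ratios every library without iron lay above every library with iron, although the level of DFR overlapped. PAP1 to CHS ran from 0.133 to 0.227 with iron and from 0.558 to 0.944 without it. LDOX to DFR, 2 consecutive steps, stayed between 0.890 and 1.26 in all 8 libraries, with group means of 1.08 ± 0.262, 1.11 ± 0.0503, 0.995 ± 0.0774 and 1.05 ± 0.0183. Of the other ratios computed, PAP1 to DFR and UF3GT to DFR also separated libraries with and without iron. FLS1 to CHS, FLS1 to DFR and F3H to DFR overlapped. CHS had negative log2 differences without iron, while the median of all tested genes was positive. How many genes separate in this way relative to CHS was not computed.

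**Figure D4:**
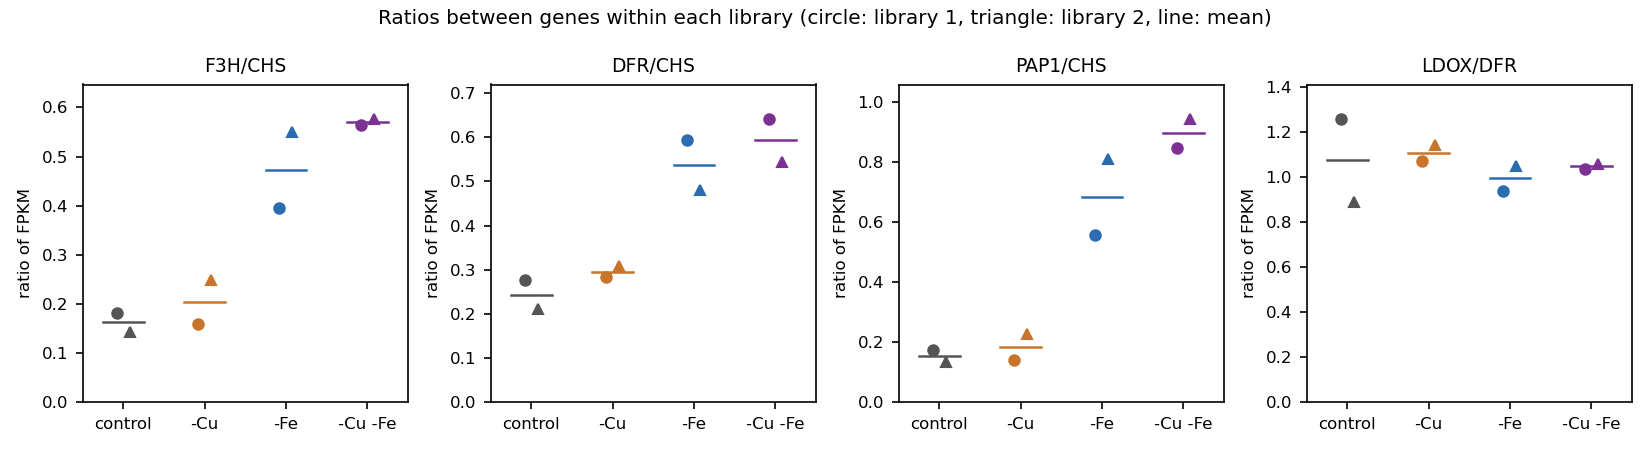
Ratios of FPKM between genes of the pathway within each library, by group; circles are replicate 1, triangles replicate 2, and lines group means. F3H, DFR and PAP1 relative to CHS separate the libraries without iron from those with it, while LDOX relative to DFR stays near 1. Not all ratios computed are drawn, and FLS1 relative to CHS, not drawn, overlaps.

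The partners of PAP1 were measured in the same libraries. Its close relatives PAP2, MYB113 and MYB114, the bHLH factor GL3 and the flavonol regulators MYB11 and MYB12 never exceeded 1.11 FPKM and were too low to test. The flavonol regulator MYB111 ran from 0.627 to 1.24 FPKM, and the bHLH factor EGL3 from 0.553 to 2.42 FPKM, and neither was called. PAP1 was thus the most abundant of these MYB activators in every library. TT8, a bHLH partner of PAP1, stood at 1.15 and 0.845 FPKM in the control, 1.04 and 0.961 under copper deficiency, 3.88 and 2.38 under iron deficiency, and 3.20 and 3.37 under double deficiency. All libraries without iron were above all libraries with iron. TT8 rose by 1.03 ± 0.23 under iron deficiency and 1.10 ± 0.23 under double deficiency, with limma adjusted p of 0.0171 and 0.0098, and both calls were lost without control replicate 2, with log2 differences of 0.92 and 0.99, and under quantile normalization. The first was also lost without iron deficiency replicate 1, at 0.76.

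TTG1, the WD40 scaffold, stood at 24.3 and 21.3 FPKM in the control, 23.8 and 29.0 under copper deficiency, 31.7 and 40.9 under iron deficiency, and 38.4 and 40.2 under double deficiency. The log2 difference was 0.64 ± 0.16 under iron and 0.76 ± 0.16 under double deficiency, with limma adjusted p of 0.0234 and 0.00965. Scaling by median ratios took these to 0.36 and 0.33, with adjusted p of 0.0833 and 0.0956, and the first call was also lost without either control, either double-deficient library or iron deficiency replicate 2, and the second without control replicate 2 or either double-deficient library.

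The light-signalling bZIP factors HY5 and HYH, which can bind G-boxes, had the largest log2 rises among the 17 regulators tested. HY5 stood at 6.71 and 6.08 FPKM in the control, 6.20 and 8.84 under copper deficiency, 23.2 and 25.1 under iron deficiency, and 29.7 and 34.5 under double deficiency. HYH stood at 13.4 and 11.9, 8.63 and 10.1, 41.7 and 47.8, and 62.9 and 84.2 FPKM in the same order. Neither gene overlapped between libraries with and without iron. HY5 rose by 1.76 ± 0.17 under iron and 2.16 ± 0.17 under double deficiency, with limma adjusted p of 0.00116 and 0.000392. HYH rose by 1.74 ± 0.17 and 2.44 ± 0.17, with adjusted p of 0.00113 and 0.000234.

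Of the 17 regulators tested, 2 were called for double against iron deficiency, MYBL2 and AT1G23390, both higher, against 1.14% of all tested genes. MYBL2, a MYB-like protein that restrains the PAP1 complex, stood at 71.2 and 83.7 FPKM in the control, 76.7 and 72.3 under copper deficiency, 38.3 and 45.9 under iron deficiency, and 91.4 and 100 under double deficiency. It was lowest in the iron-deficient pair and highest in the double-deficient pair. MYBL2 fell by 0.87 on the log2 scale under iron deficiency, with an SE of 0.13 and a limma adjusted p of 0.00443. Its difference under double deficiency was 0.31 ± 0.13, with an adjusted p of 0.0936, and -0.14 after scaling by median ratios. Double deficiency exceeded iron deficiency by 1.17 ± 0.13, with an adjusted p of 0.0148. Without iron deficiency replicate 1 or without either double-deficient library that last adjusted p was 0.0889, 0.105 and 0.133.

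AT1G23390, annotated as a kelch repeat-containing F-box protein and named here after its values were seen, had a like pattern. Its values were 68.9 and 81.3 FPKM in the control, 64.9 and 64.8 under copper deficiency, 39.1 and 49.1 under iron deficiency, and 106 and 104 under double deficiency. The iron-deficient pair was lowest and the double-deficient pair highest. AT1G23390 fell by 0.76 on the log2 scale under iron deficiency, with an SE of 0.13 and a limma adjusted p of 0.00761, and double deficiency exceeded iron deficiency by 1.24 ± 0.13, with an adjusted p of 0.014. The latter call was lost without iron deficiency replicate 1 (1.08, adjusted p = 0.0578) and without either double-deficient library. Its difference of double deficiency from the control, 0.48 ± 0.13 with an adjusted p of 0.026, came to 0.04 after scaling by median ratios.

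LBD39, a repressor of anthocyanin genes under ample nitrate, stood at 15.0 and 18.4 FPKM in the control, 16.2 and 21.7 under copper deficiency, 19.8 and 25.5 under iron deficiency, and 39.5 and 35.9 under double deficiency. Only the double-deficient libraries lay above all others. LBD39 rose by 1.13 ± 0.19 under double deficiency, with a limma adjusted p of 0.00462, and its difference under iron deficiency was 0.41 ± 0.19, with an adjusted p of 0.145. Of the regulators not called, SPL9 had a log2 difference of 0.47 ± 0.17 under iron deficiency, with an adjusted p of 0.0755, and MYB32 one of 0.34 ± 0.28, with an adjusted p of 0.392.

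**Figure D5:**
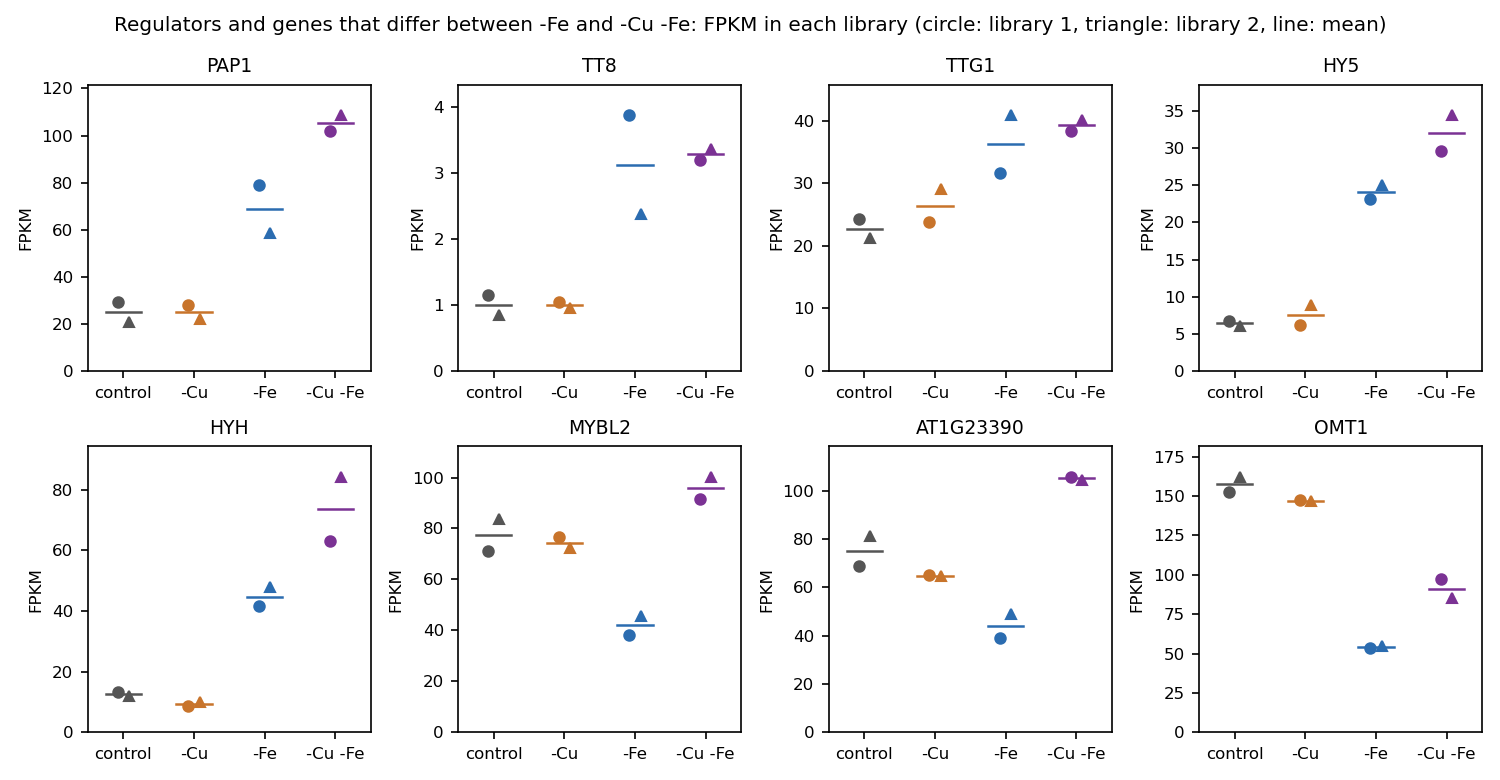
FPKM in each library of PAP1, 5 other regulators of the pathway, the F-box gene AT1G23390 and the methyltransferase OMT1; circles are replicate 1, triangles replicate 2, lines group means. HY5, HYH, TT8 and PAP1 are high in both iron-free groups, while MYBL2, AT1G23390 and OMT1 are lower under iron deficiency than under double deficiency.

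A total of 71 further genes of the pathway and its surroundings was listed, of which 56 were tested. Under copper deficiency none of them was called by limma, and 3 had an unadjusted p under 0.05. Under iron deficiency 14 were called higher and 7 lower, or 37.5% of those tested against 34.1% of all tested genes. Under double deficiency 30 were called higher and 3 lower, or 58.9% against 45.1%. These directions depend on the scaling: by median ratios 9 were called higher and 12 lower under iron deficiency, 38.2% of 55 tested against 29.1% of all genes, and 9 higher and 7 lower under double deficiency, 29.1% against 31.8%. For double against iron deficiency, 45 of the 56 had a log2 difference above 0. Of these, limma called 3, MYBL2, AT1G23390 and OMT1, all higher. That was 5.36% of those tested, against 1.14% of all tested genes, 0.939% higher and 0.198% lower.

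By role, and against 27.2% higher and 6.85% lower of all tested genes under iron deficiency and 39.2% and 5.99% under double deficiency, 5 of 17 tested regulators were called higher and 2 lower under iron deficiency, and 9 higher and 0 lower under double deficiency. Their median log2 difference was 0.34 and 0.48. The other flavonoid enzymes had 6 higher and 1 lower of 14 under iron deficiency, and 9 higher and 1 lower under double deficiency, with medians of 0.73 and 0.86. The entry steps of the phenylpropanoid pathway had 1 higher and 2 lower of 13, and then 6 higher and 1 lower, with medians of -0.03 and 0.40. The lignin and sinapate branches had 2 higher and 2 lower of 11, and then 6 higher and 1 lower, with medians of 0.17 and 0.45. After scaling by median ratios the regulators had 3 higher and 3 lower under iron and 4 higher and 1 lower under double deficiency, and the other flavonoid enzymes 4 higher and 2 lower in each. By the same scaling the entry steps had 1 higher and 4 lower, and then 1 higher and 2 lower, and the lignin and sinapate branches 1 higher and 3 lower, and then 0 higher and 2 lower. Of 7 seed tannin genes, 6 were too low to test and the proton pump AHA10 was not called.

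Enzymes that decorate flavonoids and anthocyanins made up most of the second list. UGT73C6, a flavonol glucosyltransferase, stood at 1.67 and 0 FPKM in the control, 2.35 and 1.81 under copper deficiency, 56.1 and 53.6 under iron deficiency, and 69.9 in both double-deficient libraries. The 4 libraries without iron were far above the rest, and no fold is given because 1 control is listed at 0. UGT73C6 has close tandem copies, so the assignment of its reads is uncertain. SCPL10, a serine carboxypeptidase-like acyltransferase, stood at 37.3 and 33.6 FPKM in the control, 42.9 and 33.6 under copper deficiency, 73.7 and 68.0 under iron deficiency, and 94.9 and 106 under double deficiency. It rose by 0.98 ± 0.14 and 1.47 ± 0.14, with limma adjusted p of 0.00392 and 0.000659.

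AT1G03940, annotated as an HXXXD-type acyltransferase, had the pattern of UF3GT. Its values were 8.03 and 4.70 FPKM in the control, 8.56 and 4.56 under copper deficiency, 19.8 and 10.5 under iron deficiency, and 21.0 and 14.7 under double deficiency. All iron-free libraries were above all libraries with iron. AT1G03940 rose by 1.38 ± 0.41 under double deficiency, with a limma adjusted p of 0.0342, and differed by 1.11 ± 0.41 under iron deficiency, with an adjusted p of 0.0807. The call was lost without control replicate 2 (1.05, adjusted p = 0.164), without either double-deficient library and after scaling by median ratios (0.97, adjusted p = 0.132). The anthocyanin glucosyltransferase UGT75C1 was not called, with 0.72 ± 0.36 and 0.88 ± 0.36 and adjusted p of 0.172 and 0.0919, nor was the flavonol rhamnosyltransferase UGT78D1, with -0.22 ± 0.13 and -0.09 ± 0.13 and adjusted p of 0.221 and 0.573.

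The methyltransferase OMT1, which acts on lignin precursors and on quercetin, went the other way. It stood at 153 and 162 FPKM in the control, 147 in both copper-deficient libraries, 53.5 and 55.1 under iron deficiency, and 97.1 and 85.6 under double deficiency. No iron-free library reached a library with iron, and the double-deficient pair lay between the iron-deficient pair and the control. OMT1 fell by 1.52 on the log2 scale under iron deficiency and by 0.78 under double deficiency, each with an SE of 0.09 and with limma adjusted p of 0.000173 and 0.00128. Double deficiency exceeded iron deficiency by 0.74 ± 0.09, with an adjusted p of 0.023, which ranged from 0.0628 to 0.154 on leaving out any library of the control, iron or double group.

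A further 2 enzymes of this list and 1 regulator were chosen after their values were seen. CHIL, a chalcone isomerase-like protein that assists CHS, stood at 34.5 and 21.3 FPKM in the control, 34.8 and 26.0 under copper deficiency, 62.2 and 60.3 under iron deficiency, and 61.6 and 62.5 under double deficiency. It rose by 1.15 ± 0.23 and 1.16 ± 0.23, with limma adjusted p of 0.0127 and 0.00862, and each call was lost on leaving out either library of the deficient group, at between 0.0507 and 0.0656. UGT78D2, which glucosylates flavonols and anthocyanidins, stood at 28.9 and 22.9, 28.3 and 25.7, 43.9 and 42.8, and 46.8 and 47.5 FPKM in the same order. It rose by 0.73 ± 0.12 and 0.85 ± 0.12, with adjusted p of 0.00695 and 0.00282. In both enzymes the libraries without iron lay above all those with iron. LBD38, a relative of LBD39, rose by 0.99 ± 0.18 under double deficiency, with an adjusted p of 0.0065, a difference that was 0.57 with an adjusted p of 0.0553 after scaling by median ratios.

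At the entry of the phenylpropanoid pathway, the cytochrome P450 reductase ATR2 rose by 0.57 ± 0.08 and 0.70 ± 0.08 under iron and double deficiency, with limma adjusted p of 0.00389 and 0.00133. The ligase 4CL1 rose by 0.54 ± 0.14 under double deficiency, with an adjusted p of 0.0223. AT1G80440, annotated as a kelch repeat protein, rose by 0.63 ± 0.20, with an adjusted p of 0.0415. Both these calls were lost without any 1 of the control or double-deficient libraries, and scaling by median ratios took the log2 differences to 0.10 and 0.20. 4CL5 was listed at 2.76 and 2.61 FPKM in the control and 2.26 in copper deficiency replicate 1, and at 0 in the other 5 libraries. Not called were 4CL2, with 0.68 ± 0.32 under iron deficiency and an adjusted p of 0.146, and the kelch repeat gene AT1G15670, with 0.60 ± 0.28 under double deficiency and an adjusted p of 0.124.

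In the branches that draw on the same precursor, HCT, which diverts p-coumaroyl-CoA to lignin, fell by 0.65 on the log2 scale under iron deficiency and by 0.64 under double deficiency, with SEs of 0.14 and limma adjusted p of 0.0168 and 0.0134. Without control replicate 2 these adjusted p were 0.0946 and 0.0795, and without either double-deficient library the second was 0.0552 and 0.0757. SNG1, which makes sinapoylmalate, fell by 0.50 under iron deficiency, with an SE of 0.10 and an adjusted p of 0.0125, or 0.0792 without control replicate 2. The aldehyde dehydrogenase REF1 rose by 0.64 ± 0.09 and 0.54 ± 0.09, with adjusted p of 0.00386 and 0.00422, the second difference being 0.10 after scaling by median ratios. CCOAOMT1, a caffeoyl-CoA methyltransferase, rose by 0.51 ± 0.12 under double deficiency, with an adjusted p of 0.0172, which was lost without any 1 of the control or double-deficient libraries (0.057 to 0.0929). CCR2 and CAD4 were not called, with 1.53 ± 0.86 under double deficiency and -0.22 ± 0.15 under iron deficiency and adjusted p of 0.195 and 0.299. CCR2 was listed at 2.29 and 0 FPKM in the control, so its difference rests on a listed 0.

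Outside these lists, the 5 genes closest to the mean profile of CHS, CHI, F3H, F3'H and FLS1 over the 6 deficient libraries were AT2G29070, TRM22, PAN, AT5G65650 and AT2G37585, among 17248 genes compared. AT2G29070 was the nearest, at a root mean square distance of 0.102 on the log2 scale. For DFR, LDOX, UF3GT and TT19 they were AT5G01815, U3D, MES9, AT1G54385 and DMC1, with the nearest at a distance of 0.442. With TT19 left out, which was decided after its zeros were seen, they were AT3G14870, AT1G10020, AT5G57123, AT3G26050 and AT5G48320, with the nearest at 0.167. The genes compared share the depth and scaling of each library, and the likeness is given as a description.

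The mesophyll genes RBCS1A, LHCB1.3, LHCB2.1 and RCA, which define green leaf tissue, were abundant in every library. Their sum was 50643 and 52316 FPKM in the control, 52000 and 50122 under copper deficiency, 24186 and 30009 under iron deficiency, and 25335 and 27668 under double deficiency. LHCB1.3 and LHCB2.1 fell under iron deficiency and, with RCA, under double deficiency, by limma. Since FPKM is a share of each library, a lower share of such abundant RNAs and more RNA of other genes cannot be told apart, nor can a change in the mix of cell types from a change per cell. Of the 3 trichome genes GL2 was at 0 in all libraries and GL1 reached at most 1.79 FPKM. The sum of the 2 seed storage genes was 12.5 FPKM in control replicate 2 and at most 0.292 elsewhere. The 3 flower genes summed to 1.36 and 0.637 FPKM in the control, 0.489 and 1.44 under copper deficiency, 2.06 and 2.00 under iron deficiency, and 3.41 and 5.14 under double deficiency. The 4 root genes summed to 15.5 and 4.72, 9.20 and 4.12, 22.4 and 12.3, and 29.6 and 12.0 FPKM in the same order. The flower gene PI was called higher by limma under double deficiency, with an adjusted p of 0.00492. The root gene SHR was called higher under iron and double deficiency, with adjusted p of 0.017 and 0.023, and so was the epidermal gene ATML1, with adjusted p of 0.0498 and 0.0355. Their part in the results was not tested.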

How the data were processed

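RNA of 8 leaf libraries, 2 in each of 4 groups, was sequenced unstranded. The authors deposited FPKM per gene with lower and upper bounds, in Cufflinks format per the file headers. Trimmomatic, TopHat2 2.1.1, Cufflinks and Cuffdiff are named in the submitters' processing notes. The genome build and annotation are not given in these sources. Of the gene IDs, 99.2% were found in RefSeq TAIR10.1, and 99.9% of these had the same start and end, so its coordinates and sequences were used. No read counts were used, so no count model could be run and the precision of a value is known from the authors' bounds alone.

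limma 3.58.1 in R 4.3.3 was fitted to log2(FPKM + 1) of genes that reached 1 FPKM in 2 or more of the 8 libraries, with 1 mean per group, 4 residual degrees of freedom, a mean-variance trend and Benjamini-Hochberg adjustment over all 19171 tested genes. The fit was also run on simulated data with separate noise for each gene. Such data lack the replicate differences that many pathway genes had in common, so no result here rests on them. Libraries were compared for identical values, and no pair shared more than 1 gene with the same value above 0. Replicate numbers are not shown to pair the libraries. The genes, lists and tests were chosen with earlier results of these data known. All 10 pathway genes are named, and for each further list the 4 called genes with the largest log2 difference under iron or double deficiency and the 2 largest not called, besides the listed partners of PAP1 and the flavonol regulators; exceptions are said to have been chosen later. Alternatives were another pseudocount, filter, scaling, a fit without the trend, a replicate block and leaving out each library.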

Additional observations from a re-analysis of the deposited data

Results flagged for a closer look

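The effect of adding copper deficiency differed with and without iron for the F-box gene AT1G23390, by an interaction of 1.44 ± 0.19 on the log2(FPKM + 1) scale, with a limma adjusted p of 0.0398. The difference of copper deficiency from the control was -0.20 ± 0.13 and that of double from iron deficiency 1.24 ± 0.13, with 2 of 2 libraries on the same side each time. The interaction ran from 1.28 to 1.61 over the alternatives and was past the threshold in some of them only, with adjusted p of 0.0541 to 0.195 where it was not. This gene is not one of the 10 pathway genes, none of which was called for the interaction.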

How the results depend on the processing

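Of 1014 values recomputed for the 10 pathway genes, 973 kept their side of the threshold, 19 calls were lost, 22 were gained and 0 reversed. Among the 973 that kept their side, 55 were called in neither fit and changed sign. For the other named genes the numbers were 3906, 3610, 229, 66 and 1, with 190 such sign changes among the 3610. The reversed value was CCOAOMT1 in double against copper deficiency, at -0.032 (adjusted p = 0.861) after scaling by median ratios. PAP1 kept its calls throughout. The iron call of F3H was also lost with no filter (adjusted p = 0.0684) and under quantile normalization (0.59, adjusted p = 0.12). The cause of these changes was not tested.

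Pathway genes called under iron deficiency numbered 1 with no filter, and 1 to 3 on leaving out a library. Under copper deficiency and for the interaction leaving out copper deficiency replicate 2, where TT19 is listed at 0, called 1, TT19, and any other left-out library 0. Double against copper deficiency called 4 among nuclear coding genes above 0 in all libraries, against 9019 of all 16812 genes tested there. With no filter, 5197 of all 33459 tested genes were called under iron deficiency. Replicate 1 minus 2 correlated by -0.039 to 0.024 between groups over genes, so the numbers are not shown to pair the libraries. The letters in the sample titles run like the numbers outside the copper group, which shares 1 letter with the others and so gives no pair of letters to compare. Copper deficiency replicate 1 carries B, the letter of replicate 2 in the other groups, so a block by number does not follow the letters there. With a replicate block, 6 of the 10 were called under double deficiency, beside 8526 of all 19171 tested genes. For double against copper deficiency the block called 5 of the 10, beside 8609 of all tested genes. DFR, LDOX and UF3GT were added each time. UF3GT was also called under iron deficiency, where the block called 4 of the 10 and 6392 of all tested genes. Over all genes the block called 133 for double against iron deficiency and 68 for the interaction.

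The further pathway genes called under double deficiency numbered 16 by median ratios and 14 by quantiles, and against copper deficiency 16 and 18. Double against iron deficiency called 8 of them among nuclear coding genes above 0 in all libraries. For the interaction they numbered 4 under that filter and 0 by median ratios, with no filter, with no trend or with the replicate block. Leaving out a library gave 0 to 1 for copper, 11 to 22 for iron, 12 to 31 for double, 0 to 3 for double against iron, 16 to 31 for double against copper and 0 to 1 for the interaction.

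Over all genes, copper deficiency called 23 genes with the filter at 5 FPKM, 0 among nuclear coding genes above 0 everywhere, and 35 to 99 on leaving out a library. The same ranges were 3338 to 6753 for iron, 5079 to 8880 for double, 57 to 178 for double against iron, 5174 to 8338 for double against copper and 66 to 140 for the interaction. Double against iron deficiency called 847 under the nuclear coding filter, and the interaction 58 at 5 FPKM. The share of higher genes among the called was also near even under quantile normalization, at 49.6% for iron and 47.5% for double deficiency. With a group down to 1 library, that library was assumed to vary like the others.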
